A study of Mus musculus with 18 samples.

Results

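The genes described here are 10 genes of the NRF2 antioxidant pathway outside the glutathione S-transferase family, namely Nfe2l2, Keap1, Nqo1, Hmox1, Gclc, Gclm, Srxn1, Txnrd1, Slc7a11 and Gpx3. They were picked by name, as the rows of the expression table whose Ensembl mouse identifiers carry these symbols, and they make up 10 of its 23474 genes. Poly(A) RNA of epididymal fat and liver was sequenced from male C57BL/6J mice that were 5 weeks old at the start, spent 12 weeks on a diet and were sampled at 17 weeks, with 10 mice per diet. ND is the normal diet, HFD the high-fat diet, and GT the same high-fat diet with 0.25% green tea ethanol extract, so GT and ND differ in both fat content and extract. Each of the 3 diets has 3 libraries in each of the 2 tissues, 18 in all. The mice carried no transgene or engineered allele in the labels. The labels do not tie each library to a separate mouse, so p-values measure only the spread between libraries, which may be technical.

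NRF2, encoded by Nfe2l2, is a transcription factor that switches on genes of antioxidant defence and detoxification. In unstressed cells KEAP1 binds NRF2 and presents it to a ubiquitin ligase, so that it is degraded. Oxidants and electrophiles modify KEAP1, NRF2 escapes, pairs with small MAF proteins and binds antioxidant response elements near its targets. Much of this control acts on the protein, which RNA levels do not measure. Targets include NQO1, which reduces quinones, HMOX1, which breaks down haem, the enzymes of glutathione synthesis and the thioredoxin system. In fat and liver the pathway is studied in obesity because excess lipid brings oxidative stress.

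To show what an antioxidant response element looks like beside these genes, RefSeq promoter windows of build GRCm38.p6 were searched. Each window runs from 250 bases before a gene's start to 50 bases after it. The motif searched was the element's core TGACNNNGC, on both strands, with N standing for any base. It occurs in 12.4% of 32851 windows and in 14.0% of 27025 genes with a window. Of the 10 genes, 8 have a window and 4 of these hold a match. Hmox1 and Gclc have no entry. The 4 matches are printed 5′ to 3′ on the gene's strand with the motif in capitals. A motif on the opposite strand reads as its reverse complement. The Nfe2l2 match begins 240 bases before the start (chr2:75704875-75704913, minus strand). The Gclm match begins 134 bases before it (chr3:122245403-122245451, plus strand). The Srxn1 match begins 29 bases after the start (chr2:152105542-152105570, plus strand). The Txnrd1 match begins 92 bases before the start of the second of its windows (chr10:82859094-82859142, plus strand).
Nfe2l2: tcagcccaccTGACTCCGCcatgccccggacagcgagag
Gclm: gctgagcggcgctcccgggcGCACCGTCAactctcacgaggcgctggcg
Srxn1: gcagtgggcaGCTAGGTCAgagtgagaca
Txnrd1: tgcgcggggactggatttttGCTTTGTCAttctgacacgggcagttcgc
Of the windows searched for Keap1, Nqo1, Slc7a11 and Gpx3, none holds these letters. The matches are descriptions of sequence, and binding was not measured.

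Levels are FPKM, fragments scaled by transcript length and by the mapped fragments of the library, as deposited. Read numbers were not used here, so the counting error behind each value is unknown. Summed FPKM was 1002765 in fat library ND 1 and lay between 527904 and 608819 in the other fat libraries and between 680168 and 930139 in liver. Fat ND 1 stood apart, with 98971 summed FPKM of 9 testis transcripts and 730 of 5 adipocyte markers, against 4366 to 8783 in the other fat libraries for the latter. Testis transcripts were also present in fat ND 3 and HFD 1 (2980 and 2060), and summed to 15.8 to 165 in the others, with Gapdhs at 0 in each fat library. Fat results are therefore given with all 9 libraries and with the 8 that leave out ND 1. The 5 hepatocyte markers summed to 17810 to 49308 in liver, lowest in HFD 3, where Alb is listed at 0. Muscle transcripts appeared in liver HFD 2, GT 3 and HFD 3 (66.1, 29.3 and 13.1 summed FPKM of 4 genes, at most 3.20 elsewhere).

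In fat the high-fat diet went with higher Hmox1, Srxn1, Txnrd1 and Nfe2l2, and in liver with higher Nqo1, Hmox1 and Gpx3. Tests were made by limma on log2(FPKM + 1) across all genes that reached 1 FPKM in at least 3 libraries of the tissue, adjusted by Benjamini-Hochberg and called at 0.05, and a change is a difference on that scale with its standard error. Slc7a11 fell below this floor in both tissues, so 9 of the 10 genes were tested. In fat without ND 1, 4 of 9 rose and 0 fell on HFD against ND, where 17.8% of all genes tested were called up and 9.62% down. With all 9 fat libraries 2 rose and 0 fell, against 5.28% up and 0.371% down among all genes. In liver 3 of 9 rose and 0 fell, against 11.9% up and 6.67% down. The median change of the 9 was 0.22 in fat without ND 1 and 0.45 in liver, where the medians over all genes were 0.015 and -0.018. With all 9 fat libraries the median was 0.87, against 0.132 over all genes.

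GT was compared with HFD and with ND, and the HFD against ND and GT against HFD comparisons share the HFD libraries. In liver 2 of 9 genes, Gpx3 and Hmox1, fell on GT against HFD, where 4.22% of all genes were called down and 1.14% up. In fat none of the 9 passed limma's test between GT and HFD. The share called among all genes was 0% with all 9 libraries and 1.70% without ND 1. At an unadjusted p under 0.05, 1 of 9 passed with all fat libraries (Srxn1) and 4 of 9 without ND 1 (Txnrd1, Nfe2l2, Srxn1 and Hmox1), all lower on GT. Between GT and ND, Hmox1 was called higher in fat without ND 1, 1 of 9 where 10.7% of all genes were called. With all fat libraries 0 of 9 were called between GT and ND (2 unadjusted, Hmox1 and Gpx3), where 0.639% of all genes were, and in liver also 0 of 9 (2 unadjusted), where 2.60% were.

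Counted by libraries alone, with no test, more of the 10 genes had groups that did not overlap. In liver 7 of 10 had all HFD libraries above all ND libraries and Keap1 had them below, where 44.9% of the genes tested did not overlap in either direction. In the same tissue 4 had all GT libraries below all HFD libraries (26.8% of genes tested in either direction), and between GT and ND Nqo1 was above and Gpx3 below (21.6%). In fat without ND 1, 5 were above ND on HFD and 1 below (50.2%), 5 were below HFD on GT and 1 above (36.9%), and 3 were above ND on GT and 3 below (45.5%). With all 9 fat libraries 4 were above ND on HFD (27.5%), 5 below HFD on GT and 1 above (35.1%), and 2 above ND on GT and 1 below (29.2%). Slc7a11, which was too low to be tested, is 1 of the 5 above ND on HFD without ND 1. There its HFD 1 and ND 3 values were nearly equal, at 0.324 and 0.321 FPKM. Slc7a11 is also 1 of the 5 below HFD on GT with or without ND 1. The shares are over tested genes only. Without ND 1 the comparisons with ND rest on 2 ND libraries, and 6 of 10 genes is near the background of 50.2% and 45.5%.

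**Figure D1:**
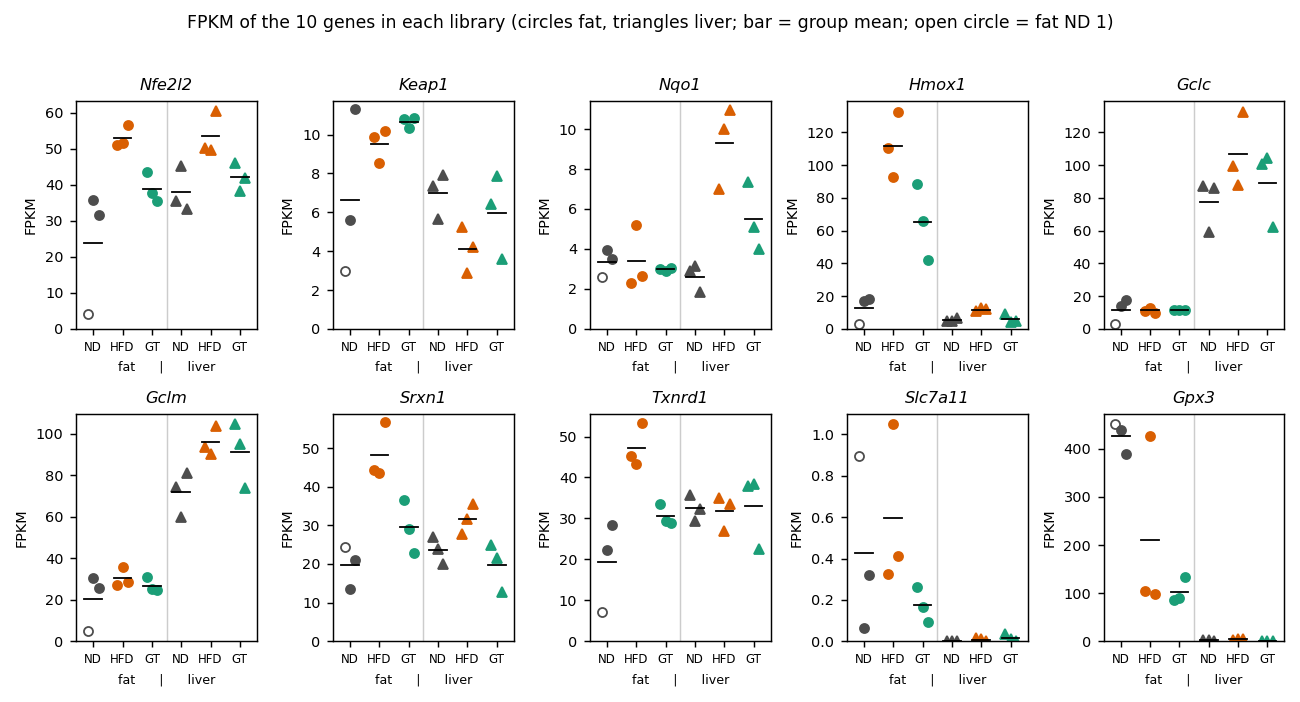
FPKM of each of the 10 genes (vertical axis, linear from 0) in each library, by diet, with circles for fat, triangles for liver, bars for group means and an open circle for fat ND 1. Hmox1 in fat spans 3.15 to 132.5 FPKM, Gpx3 is near 400 in ND fat and under 5 in liver, and Gclc and Gclm are higher in liver than in fat.

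Nfe2l2, the gene of NRF2 itself, was higher on HFD than on ND in fat, and its GT libraries overlapped ND with or without ND 1. In fat it stood at 4.18, 35.9 and 31.8 FPKM on ND, 51.0, 51.6 and 56.6 on HFD and 43.5, 37.8 and 35.6 on GT. All HFD libraries were above all others, and ND 1 was the lowest of the 9. The rise on HFD without ND 1 was 0.64 ± 0.13 (limma adjusted p = 0.00916), a fold of 1.57. With all 9 libraries it was 1.55 ± 0.68 and did not pass (adjusted p = 0.244). GT against HFD was -0.44 ± 0.12 without ND 1 (adjusted p = 0.0907). Fat being a mixture of cell types, fewer cells of a type and less RNA per cell cannot be told apart here or in any result below.

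In liver Nfe2l2 read 35.4, 45.2 and 33.4 FPKM on ND, 50.1, 49.8 and 60.4 on HFD and 46.1, 38.2 and 41.9 on GT. The HFD libraries again lay above all others, but the change against ND was 0.49 ± 0.17 and did not pass (limma adjusted p = 0.0621). It passed without ND 2 and without GT 3 (adjusted p = 0.0354 and 0.0303). GT and ND overlapped.

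Keap1, the inhibitor that hands NRF2 to degradation, passed no test in either tissue with the libraries as given. In fat it was 2.99, 5.61 and 11.3 FPKM on ND, 9.88, 8.52 and 10.2 on HFD and 10.8, 10.3 and 10.8 on GT. Its ND libraries spread more widely than the other groups, and the GT libraries lay just above the HFD ones. HFD against ND was 0.22 ± 0.24 without ND 1 (limma adjusted p = 0.529), 0.67 without ND 3 as well (adjusted p = 0.0156) and -0.23 without ND 2 as well (adjusted p = 0.280). In liver it was 7.37, 5.63 and 7.90 on ND, 5.22, 2.89 and 4.21 on HFD and 6.41, 7.89 and 3.62 on GT. All HFD libraries were below all ND libraries in liver, opposite to Nfe2l2. That change was -0.66 ± 0.25 (limma adjusted p = 0.0906). Without GT 3 it passed (adjusted p = 0.0232).

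Nqo1, a cytosolic quinone reductase often used as a readout of NRF2, rose in liver and not in fat. Liver values were 2.89, 3.13 and 1.84 FPKM on ND, 6.99, 9.99 and 10.9 on HFD and 7.35, 5.09 and 3.99 on GT. The HFD libraries were all above the ND libraries, and the GT libraries were above ND and overlapped HFD. HFD exceeded ND by 1.51 ± 0.23 (limma adjusted p = 0.00332), a 3.56-fold ratio of means, and the call held whichever library was left out. GT against HFD was -0.68 ± 0.23 (adjusted p = 0.107) and GT against ND 0.83 ± 0.23 (adjusted p = 0.0942), the latter passing without GT 3 (adjusted p = 0.0373).

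Fat Nqo1 lay between 2.28 and 5.22 FPKM in all 9 libraries. It was 2.60, 3.97 and 3.50 on ND, 2.28, 5.22 and 2.66 on HFD and 3.01, 2.90 and 3.03 on GT. The diets overlapped except that GT fell below the 2 ND libraries that remain without ND 1. HFD against ND was -0.17 ± 0.26 without ND 1 (limma adjusted p = 0.671). HFD 2, the highest library at 5.22, and ND 1, at 2.60, are the fat libraries with the most transcripts of the epididymis, described under Gpx3. The part of those transcripts in Nqo1 was not tested.

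Hmox1, the inducible haem oxygenase that releases iron, carbon monoxide and biliverdin from haem, had the largest rise of the 9 tested genes in fat in both fits. It read 3.15, 17.0 and 18.5 FPKM on ND, 110.5, 92.8 and 132.5 on HFD and 88.3, 66.2 and 42.1 on GT. The 3 diets did not overlap, with HFD highest and ND lowest, and GT 3 was the lowest of the GT libraries. HFD exceeded ND by 2.58 ± 0.29 without ND 1 (limma adjusted p = 0.00124), a 6.30-fold ratio of means. With all 9 libraries the change was 3.30 ± 0.60 (adjusted p = 0.0184), and that call ended without HFD 1, HFD 2 or HFD 3 (adjusted p = 0.0677, 0.0662 and 0.0997) and with the replicate block (adjusted p = 0.0609). Hmox1 was also higher on GT than on ND by 1.76 ± 0.29 without ND 1 (adjusted p = 0.0118), which ended without GT 2 (adjusted p = 0.0574), with the replicate number as a block (1.64 ± 0.31, adjusted p = 0.0591) and with only GT and ND fitted (adjusted p = 0.0532). GT against HFD was -0.81 ± 0.26 without ND 1 (adjusted p = 0.127).

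Macrophages, which engulf red cells and recycle haem iron, express Hmox1, and macrophage transcripts moved in the same order as Hmox1 in fat. The 7 macrophage markers Adgre1, Cd68, Csf1r, Cd14, Lyz2, Itgam and Mrc1 summed to 58.0 to 556 FPKM on ND, 2815 to 3939 on HFD and 1178 to 2593 on GT. None of the 7 was at 0 in any fat library. All 7 reached 1 FPKM in each fat library except ND 1, where 5 did. GT 3, lowest of the GT libraries for Hmox1, Srxn1, Nfe2l2 and Txnrd1, had the lowest macrophage sum of its group. For Txnrd1 it was only just the lowest, at 28.8 FPKM against 29.4 in GT 2. Transcripts of red cells were lower on HFD, with 5 markers summing to 570 to 1477 on ND, 287 to 481 on HFD and 304 to 400 on GT. The part of these cells in the fat results was not tested.

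**Figure D2:**
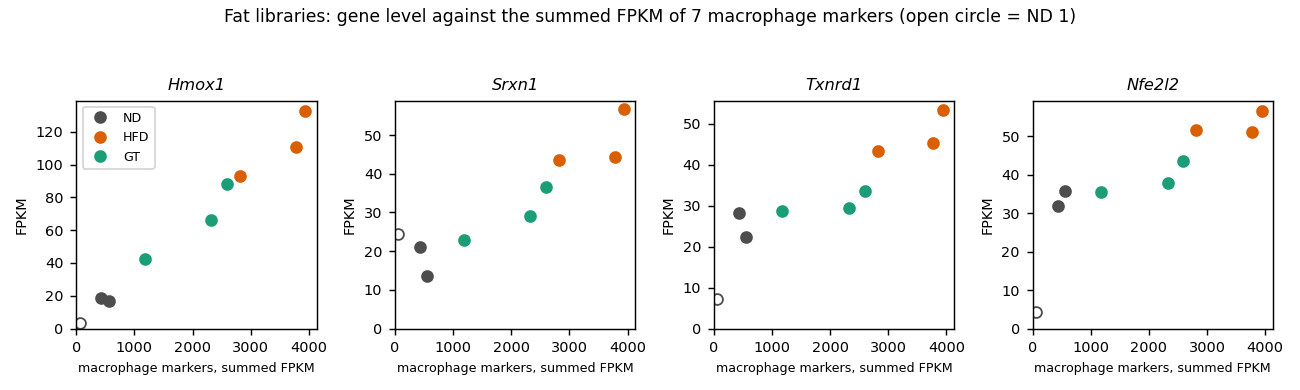
FPKM of Hmox1, Srxn1, Txnrd1 and Nfe2l2 (vertical axes) against the summed FPKM of 7 macrophage markers (horizontal axes) in the 9 fat libraries, coloured by diet, with ND 1 open. HFD libraries lie at 2815 to 3939 on the horizontal axis and have the highest level of all 4 genes, and GT libraries lie at 1178 to 2593.

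Liver Hmox1 lay below every fat library except ND 1, and it rose on HFD and fell on GT against HFD. Its values were 4.55, 4.84 and 6.41 FPKM on ND, 10.9, 12.6 and 12.0 on HFD and 8.90, 4.28 and 4.78 on GT. HFD was above both other diets in every library, and GT 1 was the only GT library above all ND libraries. The rise on HFD was 1.04 ± 0.23 (limma adjusted p = 0.0128), a 2.25-fold ratio of means, and ended without ND 1 or HFD 2 (adjusted p = 0.0613 and 0.0633). The fall on GT was -0.93 ± 0.23 (adjusted p = 0.0429). This fall ended when any of the 3 ND, the 3 HFD or GT 2 was left out (7 of 9 libraries, adjusted p from 0.0559 to 0.170), and when HFD 2 and GT 3 with muscle transcripts were both left out (adjusted p = 0.137). It also ended with FPKM scaled to equal totals, without a low-value filter and with the replicate block (adjusted p = 0.113, 0.0772 and 0.0740).

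Liver libraries also differed in blood and macrophage transcripts. The 5 red cell markers, which include the haem synthesis gene Alas2, summed to 124 to 156 FPKM on ND, 196 to 333 on HFD and 113 to 189 on GT. The 7 macrophage markers summed to 42.5 to 56.7, 43.4 to 65.7 and 26.1 to 39.1, and the 4 Kupffer cell markers Clec4f, Vsig4, Timd4 and Marco to 36.6 to 45.7, 40.9 to 51.8 and 22.7 to 37.8. None of these markers was at 0 in any liver library. By these sums GT was the lowest group for both macrophage lists, its Kupffer range overlapping ND, and HFD the highest for red cells. Not every marker followed its sum. Alas2 was 34.4 to 38.2 FPKM on ND and 27.6 to 36.4 on HFD. Adgre1 was 1.66 to 3.00 on ND and 0.876 to 1.58 on HFD. The part of these cells in liver Hmox1 was not tested.

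Gclc and Gclm encode the catalytic and modifier subunits of glutamate-cysteine ligase, which makes the rate-limiting step of glutathione synthesis. Neither passed a test in fat or liver. Liver Gclc was 87.2, 59.4 and 86.1 FPKM on ND, 99.4, 88.0 and 132.4 on HFD and 100.8, 104.0 and 61.9 on GT. Liver Gclm was 74.3, 59.8 and 81.3 on ND, 93.5, 90.0 and 103.7 on HFD and 104.7, 95.02 and 73.8 on GT. Both had all HFD libraries above all ND libraries, by 0.45 ± 0.24 for Gclc and 0.42 ± 0.18 for Gclm (limma adjusted p = 0.208 and 0.120). Gclm passed without GT 3 (adjusted p = 0.0407).

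In fat the catalytic subunit was several times below its liver level. Fat Gclc read 3.27, 13.8 and 17.9 FPKM on ND, 11.0, 12.9 and 9.97 on HFD and 11.4, 11.4 and 11.5 on GT. Without ND 1 its HFD and GT libraries all lay below the ND libraries, and HFD against ND was -0.46 ± 0.16 (limma adjusted p = 0.0660). It passed when ND 2 was left out as well and with quantile scaling (adjusted p = 0.0263 and 0.0242). Fat Gclm read 4.89, 30.6 and 25.8 on ND, 26.8, 35.7 and 28.7 on HFD and 30.9, 24.9 and 24.6 on GT. The diets overlapped for Gclm, with HFD against ND at 0.10 ± 0.17 without ND 1 (adjusted p = 0.691).

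Slc7a11, the light chain of the cystine importer that feeds glutathione synthesis, was barely detected. In fat it was 0.895, 0.0648 and 0.321 FPKM on ND, 0.324, 1.05 and 0.410 on HFD and 0.263, 0.167 and 0.0952 on GT. HFD 2 alone reached 1 FPKM, and all GT libraries lay below all HFD libraries. In liver it did not exceed 0.0358 FPKM and was listed at 0 in all 3 ND libraries. It was not tested in either tissue.

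Srxn1 and Txnrd1 belong to the thioredoxin system. Sulfiredoxin, from Srxn1, repairs over-oxidised peroxiredoxins, and thioredoxin reductase, from Txnrd1, recharges thioredoxin with NADPH. Fat Srxn1 was 24.4, 13.6 and 21.0 FPKM on ND, 44.3, 43.5 and 56.8 on HFD and 36.6, 29.1 and 22.9 on GT. Every HFD library exceeded every other, and ND 1 was within the range of the other diets here, unlike for Nfe2l2 and Hmox1. The rise on HFD was 1.45 ± 0.24 without ND 1 (limma adjusted p = 0.00408), a 2.78-fold ratio of means. With all 9 libraries it was 1.28 ± 0.29 (adjusted p = 0.0437) and ended without ND 3 and without each HFD or GT library (7 of 9, adjusted p from 0.0578 to 0.213) and with the replicate block (adjusted p = 0.0986). GT against HFD was -0.70 ± 0.22 without ND 1 (adjusted p = 0.122).

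Fat Txnrd1 read 7.15, 22.3 and 28.3 FPKM on ND, 45.3, 43.3 and 53.3 on HFD and 33.4, 29.4 and 28.8 on GT. The diets did not overlap, with GT between ND and HFD, although GT 3 was only just above ND 3. HFD exceeded ND by 0.88 ± 0.15 without ND 1 (limma adjusted p = 0.00451), a 1.87-fold ratio of means. With all 9 libraries the change was 1.44 ± 0.45 (adjusted p = 0.121). GT against HFD was -0.61 ± 0.14 without ND 1 (adjusted p = 0.0689), and it passed when ND 2 or ND 3 was left out too (adjusted p = 0.0346 and 0.0328) and when only HFD and GT were fitted (adjusted p = 0.0323). The 4 calls on HFD without ND 1, for Hmox1, Srxn1, Txnrd1 and Nfe2l2, each held whichever further library was left out.

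In liver neither thioredoxin gene passed. Liver Srxn1 was 26.9, 23.9 and 20.1 FPKM on ND, 27.9, 31.7 and 35.5 on HFD and 24.9, 21.5 and 12.8 on GT. HFD lay above both other diets, by 0.41 ± 0.23 over ND (limma adjusted p = 0.220), and GT against HFD was -0.70 ± 0.23 (adjusted p = 0.0945). GT 3, a library with muscle transcripts, was the lowest of the 9, and the HFD against ND change passed without it (adjusted p = 0.0478). Liver Txnrd1 was 35.6, 29.4 and 32.4 on ND, 34.9, 26.9 and 33.5 on HFD and 38.0, 38.3 and 22.5 on GT. Its diets overlapped, and HFD against ND was -0.04 ± 0.21 (adjusted p = 0.923).

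**Figure D3:**
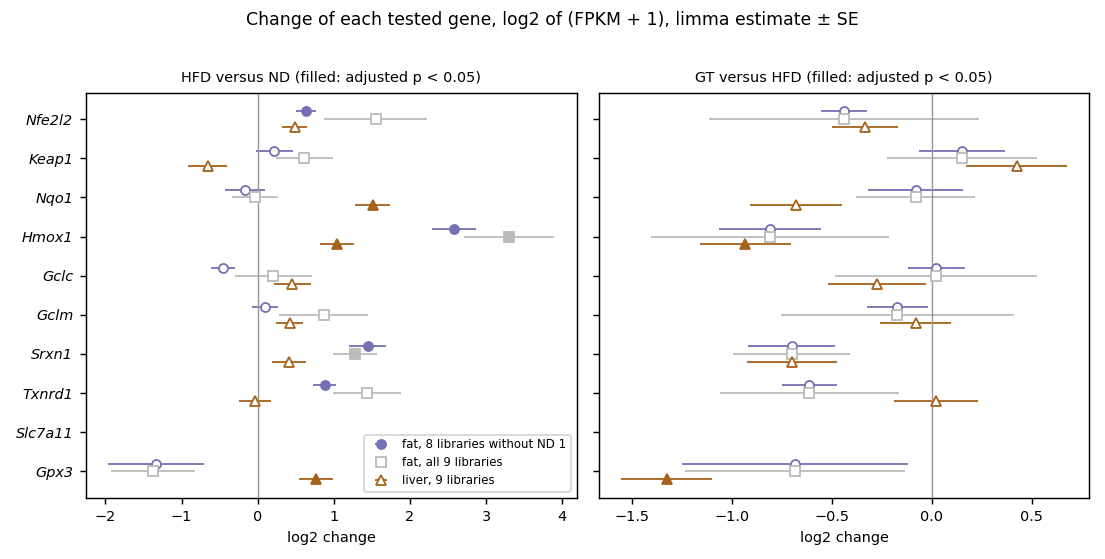
Change of the 9 tested genes on log2(FPKM + 1), limma estimate with its standard error, for HFD against ND (left) and GT against HFD (right), with circles for fat without ND 1, squares for all fat libraries, triangles for liver and filled symbols for adjusted p under 0.05. Hmox1 is filled for both tissues on the left, and on the right the filled symbols are Hmox1 and Gpx3 in liver.

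Gpx3, the secreted glutathione peroxidase of plasma, was abundant in fat and close to 0 in liver. In fat it was 450.8, 438.4 and 388.4 FPKM on ND, 103.9, 427.4 and 97.7 on HFD and 85.6, 90.4 and 133.8 on GT. HFD 2 stood with the ND libraries, and the other HFD libraries with GT. HFD against ND was therefore -1.33 ± 0.63 without ND 1 and did not pass (limma adjusted p = 0.168), and -1.37 ± 0.55 with all 9 (adjusted p = 0.218). Leaving out HFD 2 gave -2.02 ± 0.23 without ND 1 (adjusted p = 0.00568) and -2.07 ± 0.33 with ND 1 (adjusted p = 0.0381). GT against HFD was -0.68 ± 0.56 without ND 1 (adjusted p = 0.516), and 0.01 once HFD 2 was left out too. All GT libraries lay below all ND libraries, by -2.02 ± 0.63 without ND 1 (adjusted p = 0.0903), which passed without HFD 2 (adjusted p = 0.0150) and with only GT and ND fitted (adjusted p = 0.0403).

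The epididymis, which lies against this fat pad, also expresses Gpx3. The 4 epididymal markers Gpx5, Crisp1, Lcn8 and Adam7 summed to 15552 FPKM in ND 1, 6.05 in ND 2 and 10.7 in ND 3. On HFD they summed to 0.496, 1275 and 0.572, and on GT to at most 0.234. In HFD 2 the sum came from Crisp1 and Adam7 (1172 and 103 FPKM), with Gpx5 at 0.27 and Lcn8 at 0. ND 2 and ND 3 held Gpx3 near 400 with marker sums of 6.05 and 10.7, and in HFD 1, HFD 3 and each GT library at least 2 of the 4 markers were at 0. The part of epididymal RNA in HFD 2 was not tested.

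**Figure D4:**
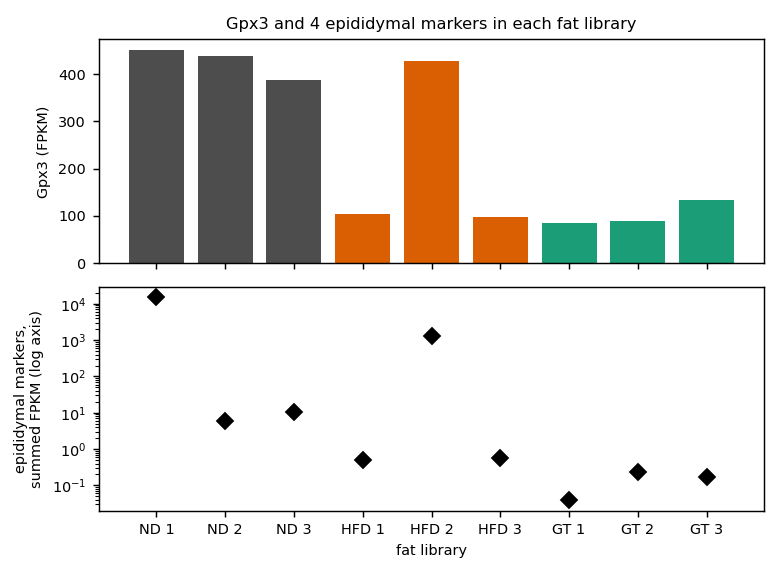
FPKM of Gpx3 (upper panel, bars from 0) and summed FPKM of 4 epididymal markers (lower panel, log axis) in each fat library. HFD 2 has 427.4 FPKM of Gpx3 and a marker sum of 1275, while HFD 1 and HFD 3 have 103.9 and 97.7 FPKM and sums under 1.

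Liver Gpx3 was a low-level gene that rose on HFD and fell on GT. It read 1.74, 1.99 and 1.38 FPKM on ND, 2.36, 3.89 and 4.84 on HFD and 0.385, 1.01 and 1.19 on GT. The 3 diets did not overlap, with HFD highest and GT below ND. The fall on GT against HFD was -1.33 ± 0.23 (limma adjusted p = 0.0144) and ended without HFD 2 or HFD 3 (adjusted p = 0.0853 and 0.0544). The rise on HFD against ND was 0.77 ± 0.23 (adjusted p = 0.0395) and ended without any of the 3 ND libraries, HFD 2 or HFD 3 (5 of 9, adjusted p from 0.0550 to 0.144). It also ended with a pseudocount of 0.1, without a low-value filter and with equal totals (adjusted p = 0.0806, 0.0743 and 0.0864), and without HFD 2 and GT 3, which held muscle transcripts (adjusted p = 0.0787). Fat transcripts are a measured fact beside it. The 5 adipocyte markers summed to 35.8 to 61.3 FPKM on ND, 83.2 to 122 on HFD and 27.1 to 94.2 on GT, nearly all of it Cidec and Lipe. Adipoq, which marks adipocytes, was 1.40 in HFD 1 and at most 0.174 elsewhere, and was listed at 0 in HFD 2, where Gpx3 was 3.89.

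The high-fat response was then compared between the tissues as the fat change minus the liver change in a fit of both tissues. Without fat ND 1, 6 of the 9 genes differed, 3 higher and 3 lower in fat than in liver, where 11.9% of all genes were called higher and 9.69% lower. Hmox1 differed by 1.53 ± 0.38 (limma adjusted p = 0.00821), Srxn1 by 1.03 ± 0.35 and Txnrd1 by 0.92 ± 0.28, all with the higher change in fat. Nqo1 differed by -1.68 ± 0.36 (adjusted p = 0.00336), Gpx3 by -2.10 ± 0.63 and Gclc by -0.91 ± 0.31, all with the lower change in fat. Hmox1 and Nqo1 held whichever further library was left out. Txnrd1 ended without fat ND 2 or HFD 3 or liver ND 1, ND 3 or HFD 2 (5 of 17, adjusted p from 0.0503 to 0.110) and with the replicate block (adjusted p = 0.0565), and Gpx3 without fat ND 2 or HFD 3 or liver ND 3, HFD 2 or HFD 3 (5 of 17, 0.0550 to 0.0630). Srxn1 ended in 9 of 17 (0.0506 to 0.193), all but fat ND 3, GT 1 and GT 3 and liver ND 3, HFD 3 and the 3 GT libraries. Gclc ended in 12 of 17 (0.0504 to 0.148), all but fat ND 2 and HFD 2 and liver HFD 2, GT 2 and GT 3, and was -0.62 with equal totals (adjusted p = 0.281). Gclc also ended with the replicate block and without a filter (adjusted p = 0.0680 and 0.0632), and Srxn1 without a filter (adjusted p = 0.0591). Nfe2l2 (0.15 ± 0.21, adjusted p = 0.655), Keap1 (0.88 ± 0.37, adjusted p = 0.10) and Gclm did not pass.

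With all 18 libraries 3 genes differed, where 5.98% of all genes were called higher and 2.55% lower. They were Nqo1 at -1.55 ± 0.38 (limma adjusted p = 0.0207), Gpx3 at -2.14 ± 0.61 (adjusted p = 0.0411) and Hmox1 at 2.26 ± 0.66 (adjusted p = 0.0457). The Nqo1 call ended without fat HFD 1 or HFD 3 or liver ND 3, HFD 2 or HFD 3 (5 of 18 libraries, adjusted p from 0.0530 to 0.0652) and with equal totals (adjusted p = 0.132). The Gpx3 call ended in 12 of 18 (0.0506 to 0.119), all but the 3 fat ND libraries, fat HFD 2, fat GT 3 and liver GT 3, and with equal totals (adjusted p = 0.114). The Hmox1 call ended in 14 of 18 (0.0517 to 0.117), all but the 3 fat ND libraries and fat GT 3, and with a pseudocount of 0.1, without a filter and with the replicate block (adjusted p = 0.0724, 0.0503 and 0.05). The Gpx3 call ended with the block as well (adjusted p = 0.0599). The GT against HFD change differed between the tissues for 0 of 9 genes in limma's test, where 0.00996% of all genes were called with 18 libraries and 3.88% without fat ND 1. Unadjusted, 0 of 9 were under 0.05 with 18 libraries and 1 without ND 1, Txnrd1 at -0.63 ± 0.26 (adjusted p = 0.163).

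Set side by side without a test, the ND levels also ordered the genes differently in the 2 tissues. In fat without ND 1 the means over 2 libraries ran from Gpx3 (413.4 FPKM) through Nfe2l2 (33.8), Gclm (28.2), Txnrd1 (25.3), Hmox1 (17.8), Srxn1 (17.3), Gclc (15.9), Keap1 (8.45) and Nqo1 (3.74) to Slc7a11 (0.193). In ND liver over 3 libraries the order was Gclc (77.5 ± 15.8, SD), Gclm (71.8 ± 10.9), Nfe2l2 (38.0 ± 6.32), Txnrd1 (32.5 ± 3.09), Srxn1 (23.6 ± 3.40), Keap1 (6.97 ± 1.19), Hmox1 (5.27 ± 1.00), Nqo1 (2.62 ± 0.687) and Gpx3 (1.70 ± 0.306), with Slc7a11 at 0. Neighbours whose library ranges overlapped were Gclm and Txnrd1, Hmox1 and Srxn1, and Srxn1 and Gclc in fat, and Gclc and Gclm, Nfe2l2 and Txnrd1, Keap1 and Hmox1, and Nqo1 and Gpx3 in liver. On HFD the order of means in fat changed, with Hmox1 at 111.9 ± 19.9 FPKM in the second place after Gpx3 at 209.7. That Gpx3 mean rests on HFD 2, at 427.4. In HFD 1 and HFD 3 Hmox1 (110.5 and 132.5) was above Gpx3 (103.9 and 97.7).

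Around these 10 genes, 68 other genes of the pathway were followed in 7 lists, and 66 were tested in fat and 61 in liver. In fat without ND 1, 18 rose and 7 fell on HFD against ND, with a list median of 0.13. With all 9 libraries 2 rose, Akr1b8 and Ftl1, and 0 fell. In liver 23 rose and 2 fell on HFD, with a median of 0.53. The same shares of all genes as given above apply, 17.8% up and 9.62% down in fat without ND 1 and 11.9% and 6.67% in liver. With all 9 fat libraries they are 5.28% and 0.371%. On GT against ND 10 rose and 5 fell in fat without ND 1, where 7.5% of all genes were called up and 3.16% down. With all 9 fat libraries 0 were called, against 0.639% of all genes. In liver 4 rose and 0 fell on GT against ND, where 1.27% of all genes were called up and 1.33% down.

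Of the 11 regulators, Bach1 (0.80 ± 0.17), a repressor of NRF2 targets, and Dpp3 (0.59), which competes for KEAP1, rose in fat on HFD without ND 1. In liver Mafk (0.71), Maff (1.03) and Rbx1 (0.53) rose. The former 2 are small MAF partners of NRF2, and Rbx1 is part of the ligase that KEAP1 serves. On GT against HFD, liver Bach1 rose by 0.88 ± 0.16 (limma adjusted p = 0.0163), from 5.56 ± 0.477 to 11.1 ± 0.211 FPKM, and the autophagy receptor Sqstm1 was lower by -0.68 ± 0.14 (adjusted p = 0.0288), from 306.2 ± 22.1 to 191.6 ± 17.8.

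Among glutathione genes, 4 of 10 rose in liver on HFD, namely Ggct (1.36), Gpx4 (1.62), Gss (0.67) and Gpx7 (0.69). Gpx4, the peroxidase that reduces lipid hydroperoxides in membranes, went from 149.9 ± 41.4 FPKM on ND to 455.8 ± 74.8 on HFD and 201.0 ± 27.8 on GT. Gpx4 and Ggct, an enzyme of the gamma-glutamyl cycle, both fell on GT against HFD (-1.17 ± 0.21 and -1.21 ± 0.15). In fat without ND 1, 1 of 12 rose, the glutaredoxin Glrx (0.81), and with all 9 libraries 0 of 12.

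Of 13 thioredoxin genes, 2 rose and 3 fell in fat on HFD without ND 1. The thioredoxin gene Txn1 (0.88) and the sestrin Sesn1 (1.07) rose, while Sesn2 (-1.51 ± 0.18), the thioredoxin inhibitor Txnip (-0.72) and Prdx3, a mitochondrial peroxiredoxin, fell. In liver Txn1 (1.24 ± 0.19) and Prdx2 (0.58) rose and none fell. Txn1 rose in both tissues, while its reductase Txnrd1 rose in fat and overlapped between diets in liver.

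Of 6 genes of NADPH supply and the pentose phosphate pathway, 3 rose and 1 fell on HFD in fat without ND 1 (0 of 6 with all 9 libraries) and in liver. Taldo1 and Tkt act in the branch of that pathway that makes no NADPH. Fat without ND 1 had Idh1 (1.24), Pgd (0.68) and G6pdx (0.57) up and Tkt (-0.52) down, whereas liver had Taldo1 (1.26), Tkt (1.12) and Pgd (0.78) up and G6pdx (-0.89) down. Tkt and G6pdx went opposite ways in the 2 tissues, and in the fit of both tissues without fat ND 1 each differed. Taldo1 and Tkt fell in liver on GT against HFD (-0.56 and -0.68).

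Of 12 detoxification genes tested in fat without ND 1, 4 rose on HFD against ND. Another 1 fell, Aox1, which rose in liver. The aldo-keto reductase Akr1b8 rose by 2.14 ± 0.25 (limma adjusted p = 0.00127), from 9.12 FPKM over the 2 ND libraries to 44.2 ± 10.1, and the carbonyl reductase Cbr3 by 1.24, Ptgr1 by 1.37 and Ephx1 by 0.69. Cbr3 was the only gene of the 66 called between GT and HFD in fat without ND 1 (-1.01 ± 0.14, limma adjusted p = 0.0412), where 1.7% of all genes were called. In liver 5 of 9 rose and 1 fell, led by the bile salt and conjugate exporter Abcc3 (1.14), Ugdh (1.27), Htatip2 (0.64) and Aox1 (0.70). Abcc3 and Htatip2 fell again on GT (-0.73 and -0.79). Osgin1 was higher on GT than on ND in liver by 2.04 ± 0.33 (adjusted p = 0.0114), at 159.8 ± 79.7 FPKM against 36.8 ± 13.7.

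Of the haem and iron genes, 4 of 7 rose on HFD in fat without ND 1 and in liver, beside Hmox1, and 1 of 7 (Ftl1) with all 9 fat libraries. In fat without ND 1 Ftl1 (1.69), Blvra (1.15), Fth1 (0.86) and Blvrb (0.79) rose, and the iron exporter Slc40a1 fell (-0.83 ± 0.19). Ftl1 and Fth1 encode the ferritin chains that store iron, and Blvra and Blvrb reduce biliverdin and related compounds. In liver the same 4 rose, by 1.08, 0.62, 0.93 and 1.04, and Ftl1 fell on GT against HFD (-0.84). Of 5 superoxide and peroxide genes, Sod2 rose in both tissues on HFD (0.69 in fat without ND 1 and 0.61 in liver). Selenop (0.79) rose and Cat (-0.57) fell in fat without ND 1, and Sod3 rose in liver (0.78) and fell on GT (-0.97). In all, 1 gene rose and 9 fell of 61 in liver on GT against HFD, where 1.14% of all genes were called up and 4.22% down. The median of the 61 was -0.29 beside -0.041 over all genes.

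**Figure D5:**
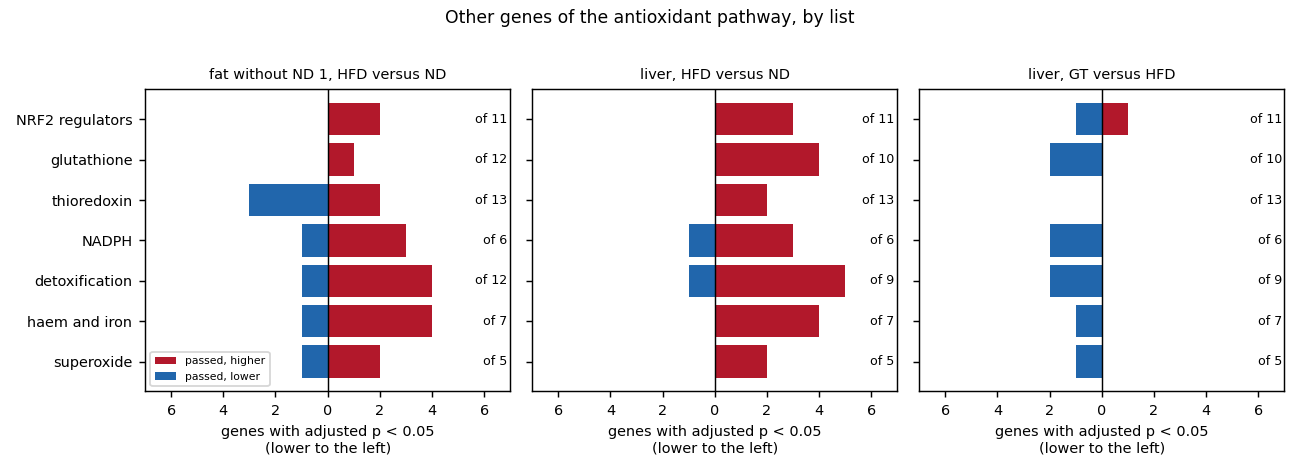
Number of other pathway genes with adjusted p under 0.05 in each of 7 lists, higher to the right and lower to the left, with the number tested at the right edge. In liver the detoxification list has 5 higher of 9 on HFD against ND, and on GT against HFD Bach1 is the only gene to the right.

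For each gene called within a tissue, the 3 genes with the most similar pattern were found by Pearson's r on log2(FPKM + 1) among all genes kept there. In fat over 8 libraries Hmox1 was most like Wfs1, Tbxas1 and Tgfb1 (r = 0.998 for each), Nfe2l2 like Il1rl1, Arl8b and Stx7 (0.992, 0.990 and 0.989), Srxn1 like Perm1, Trp53 and Itprid2 (0.995, 0.994 and 0.994) and Txnrd1 like Tpbg, Rhob and Adamts14 (0.998, 0.993 and 0.990). In liver over 9 libraries Nqo1 was most like A730085K08Rik, Plin4 and Ppif (0.978, 0.978 and 0.977), Hmox1 like Pdlim2, Ucp2 and Arl8a (0.970, 0.969 and 0.967) and Gpx3 like Ptp4a3, Mfap4 and Tagln2 (0.988, 0.974 and 0.949). These are the highest of all genes kept in the tissue, over few libraries that share diets, and none of the 10 genes appears among them.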

How the data were processed

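Values are FPKM per gene as deposited by the authors, in 1 table of 18 columns that each match a library's label (0 columns matched none). The submitters' processing notes name Cufflinks 2.1.1, STAR 2.4.0 and CASAVA 1.8.2. Genome build and annotation were not given in the sources used here. Of 23474 identifiers 22671 matched a symbol.

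From there, log2(FPKM + 1) of genes with at least 1 FPKM in at least 3 libraries was fitted per tissue with a mean per diet in limma 3.58.1 (R 4.3.3), with empirical Bayes trend and robust options and Benjamini-Hochberg adjustment over 13762 fat genes (12859 without ND 1), 10670 liver genes and, for the tissue difference, 10042 genes (9957 without fat ND 1). The steps were tested on simulated data. Log values understate changes of low genes.

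The members and lists, including testis, epididymis and other marker lists, were chosen with earlier results of these data known. All 10 members are named. From each pathway list up to 4 called genes with the smallest p are named for HFD against ND and for GT against HFD within a tissue. Further called genes named beside them were chosen after their values were seen. So were Osgin1, the only pathway gene named for GT against ND, and Tkt and G6pdx for the tissue difference. Alternatives were no filter, equal totals, quantile scaling, a pseudocount of 0.1, a filter at 5 FPKM, a plain variance prior, a replicate block, fitting 2 diets only, and leaving out libraries. Repeating them from the fits without fat ND 1 was added after seeing the data. Promoter windows are RefSeq's.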

Additional observations from a re-analysis of the deposited data

Results flagged for a closer look

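The high-fat response of several of the 10 genes differed between fat and liver in limma's test of the difference itself (log2 change in fat minus that in liver, HFD against ND). With all 18 libraries the difference was -1.55 for Nqo1, -2.14 for Gpx3 and 2.26 for Hmox1. Without fat ND 1 it was -1.68 for Nqo1, -2.10 for Gpx3, 1.53 for Hmox1, 0.92 for Txnrd1, 1.03 for Srxn1 and -0.91 for Gclc. The Gpx3 value includes fat HFD 2, which held 1275 summed FPKM of epididymal markers. The Hmox1, Srxn1 and Txnrd1 values include fat libraries whose macrophage markers rose from 430 to 556 on ND without ND 1 to 2815 to 3939 summed FPKM on HFD, against 42.5 to 56.7 and 43.4 to 65.7 in liver.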

How the results depend on the processing

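Library number limits these results: with 3 libraries a group, leaving out 1 changed many calls. Calls among all genes moved too. In fat HFD against ND, 3527 of 12859 genes were called without ND 1 and 59 of 13714 without HFD 3. Those fits called 4 and 0 of the 9 genes. In liver HFD against ND, 3367 of 10603 were called without GT 3 and 460 of 10577 without HFD 2. Those fits called 7 and 1 of the 9 genes. The number of the 9 tested genes called ranged, over fits leaving out 1 library, from 0 to 4 in fat HFD against ND (2 with all), 0 to 0 in GT against HFD and 0 to 1 in GT against ND. Without fat ND 1 the ranges were 4 to 5, 0 to 1 and 0 to 3, in liver 1 to 7, 0 to 2 and 0 to 1, and for the tissue difference 0 to 6 and 0 to 0, or 2 to 7 and 0 to 1 without fat ND 1.

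Same-numbered deviations correlated at -0.0692 to 0.643 in fat, -0.301 to 0.418 in liver and -0.241 to 0.284 between the tissues. For replicates 1, 2 and 3 the values were 0.643, 0.483 and 0.0948 between fat ND and HFD, and 0.258, 0.124 and 0.189 between fat ND and GT. Differently numbered libraries were not compared, and fat ND 1 held testis transcripts. These values therefore cannot decide whether the numbers pair libraries, and the main fits take no pairing. Below, brackets give the calls among all genes tested in the same fit. With the replicate block, fat HFD against ND gave 0 of the 9 genes in place of 2 (337 of 13762). Fat GT against ND without ND 1 gave 0 in place of 1, Hmox1 (157 of 12859). Liver GT against HFD gave 1 in place of 2 (306 of 10670), and the tissue difference in HFD against ND gave 1 in place of 3 (409 of 10042). Fitting only the 2 diets compared gave 0 for fat HFD against ND (317 of 13621). It gave 1, Txnrd1, for fat GT against HFD with or without ND 1 (920 of 12386). In liver it gave 5 in place of 3 for HFD against ND (2963 of 10496) and 1 for GT against HFD (175 of 10405). Without a filter the counts were 1 for fat HFD against ND (651 of 20611) and 1 for liver GT against HFD (262 of 17276). A filter at 5 FPKM gave 1 for fat GT against HFD without ND 1 (433 of 9581). It also gave 1 for liver GT against HFD (441 of 7115) and 1 for the tissue difference (504 of 6313). Equal totals gave 1 for liver GT against HFD (208 of 10670) and 1 for the tissue difference (773 of 10042). They moved the median of all genes from 0.13 to 0.41 in fat HFD against ND, from -0.02 to -0.20 in liver and from 0.23 to 0.71 for the tissue difference. Quantile scaling gave 2 for fat GT against ND without ND 1 (1649 of 12859), and fitting only these 2 diets gave 1, Gpx3 in place of Hmox1 (203 of 12172). Leaving out the 3 fat libraries with the most testis transcripts left only ND 2 on ND, so no count is given for it. Its HFD against ND change was 1.07 for Txnrd1 and 0.58 for Nfe2l2. Without liver HFD 2 and GT 3, the 2 with the most muscle transcripts, 1 was called in GT against HFD (242 of 10511). In the same fit 1 was called in GT against ND (438 of 10511). Liver HFD 3, with 13.1 summed FPKM of muscle transcripts, stayed in this fit. The causes were not tested.

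Signs turned only for changes that did not pass with the libraries as given. Over fits leaving out 1 library, fat Gpx3 in GT against HFD ran from -1.05 to 0.01 with or without ND 1. In HFD against ND without ND 1, Keap1 ran from -0.23 to 0.67 (the latter, without ND 3, passing), Nqo1 from -0.45 to 0.01 and Gclm from -0.02 to 0.22. Liver Txnrd1 ran from -0.11 to 0.08, and was 0.08 without HFD 2 and GT 3, the 2 libraries with the most muscle transcripts.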
